A study of Mus musculus with 20 samples.

Results

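The genes described here form a signalling switch on the lysosome: the Rag GTPases (Rraga, Rragb, Rragc and Rragd), folliculin with its partners (Flcn, Fnip1 and Fnip2) and the related transcription factors Tfeb, Tfe3 and Mitf. They were followed in mouse erythroid progenitors with and without the hormone erythropoietin (Epo). Of the 10 genes listed, 9 were measured, among 18193 genes in all. Rragb was not analysed here, because no probe set was named for it. The other genes had 16 probe sets (groups of short probes against 1 transcript), and 4 genes had more than 1. Each gene was represented by the probe set chosen by the highest mean signal over the 20 arrays, among those annotated to that gene alone.

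The cells were CFU-E (erythroid colony-forming units), the progenitors from which red cell precursors arise, and they came from livers of BALB/c mouse embryos of embryonic day 13.5. Other blood cells, including those carrying the erythroid marker Ter119, were removed with antibodies and magnetic beads, so the sample is what the removal left and not a positively selected type. The group with Epo (0.5 U/ml) held 12 arrays, at 0 to 8 h hourly and at 14, 19 and 24 h, and the group without Epo held 8 arrays, at 0 to 7 h hourly. Both groups shared strain, stage and sorting, and the labels describe their history in 2 ways: starved for 1 h in a medium with albumin directly after sorting, or grown for 12 to 14 h in serum with the same dose of Epo. Each treatment and time had 1 array. The labels do not say how many embryos went into an array or whether times were separate cultures. A p-value here therefore reflects only how far single arrays of different hours scatter around a fitted mean or line. That scatter holds any drift over the hours that the fit leaves out, and the rest may be technical.

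Rag GTPases act as pairs, RagA or RagB with RagC or RagD, that carry amino acid signals to the kinase complex mTORC1 at the lysosomal surface. Folliculin, bound to FNIP1 or FNIP2, makes RagC and RagD hydrolyse their GTP, and in the GDP-bound state they present TFEB and TFE3 to mTORC1, which keeps these factors in the cytoplasm. When they are released they enter the nucleus and bind short E-box elements near genes of lysosomes and autophagy, the group known as the CLEAR network; genes of the pathway, RagD in particular, are among their targets. Loss of Flcn or Fnip1 is known to disturb blood cell development in mice.

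Because TFEB, TFE3 and MITF bind the E-box core CACGTG, the promoters of the genes were searched for it. In RefSeq windows of the 250 bases before each annotated start (GRCm38.p6), the 10 genes had 15 windows. The core occurred in 3 of these, in Rragc, Fnip1 and Rragb, against 6.02% of all 32851 windows searched. All 4 occurrences are shown with 12 bases on each side, 5′ to 3′ on the gene's strand, with the core in capitals. They lie at chr4:123917309-123917338 (Rragc, + strand), chr11:54438092-54438121 (Fnip1, + strand), and chrX:153139819-153139848 and chrX:153139910-153139939 (Rragb, + strand). The core starts 112 bases before the annotated start in Rragc, 75 in Fnip1, and 127 and 36 in Rragb. These starts need not be the first base of the gene's annotated span. The span of Rragb begins before its window, at chrX:153137644, so both its cores lie within the span. That of Fnip1 begins at chr11:54438107, inside the sequence shown.

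Rragc: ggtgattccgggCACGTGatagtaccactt
Fnip1: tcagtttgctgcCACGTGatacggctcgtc
Rragb, upstream: gagagcccgggcCACGTGatggcgggtggc
Rragb, downstream: aaagggtagcggCACGTGacaggccctggg

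In all 4 the core was followed by a on the gene's strand, while the base before it was g or c. How often this holds at other matches was not counted, so it is not read as a trait of these genes. The same search on both strands found the STAT5 motif TTCNNNGAA in the window of Rraga alone (7.02% of all windows hold it). The FOXO motif TGTTTAC (3.17% of all windows), the ATF4 motif TGATGNAA (3.45%) and the GATA motif AGATAA (9.99%) were in none of the 15. Of these motifs only TTCNNNGAA and CACGTG read the same on both strands, and none holds another. Other forms of each motif were not searched, so a missing match covers these letters only. A match describes these letters and is not evidence of binding.

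The windows of Flcn and Rragd are given whole, because of the results described next. Of the measured genes, Flcn had the largest mean difference between the groups in the hourly series. Rragd had the largest change at the late times, which hold arrays with Epo only. The window of Flcn is chr11:59810040-59810289 on the - strand and that of Rragd chr4:32982748-32982997 on the + strand, and neither holds any of the 5 motifs.

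Flcn: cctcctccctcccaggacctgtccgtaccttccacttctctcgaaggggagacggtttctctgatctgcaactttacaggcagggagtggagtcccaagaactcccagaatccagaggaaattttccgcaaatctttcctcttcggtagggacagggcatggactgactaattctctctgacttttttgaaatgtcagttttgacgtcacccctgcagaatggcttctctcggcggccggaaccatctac
Rragd: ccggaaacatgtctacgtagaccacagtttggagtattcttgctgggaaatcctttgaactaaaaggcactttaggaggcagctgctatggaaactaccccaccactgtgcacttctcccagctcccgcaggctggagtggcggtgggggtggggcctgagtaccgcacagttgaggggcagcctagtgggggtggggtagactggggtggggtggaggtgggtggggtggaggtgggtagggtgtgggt

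All expression values are on the deposited log2 scale, where 1 unit is a doubling of signal, and signals are compared between arrays and not between genes. The median probe set of an array lay at 3.93 to 4.15. Whether a probe set near that level was above background is not known here, which touches Rragd and Mitf most. The group labels fit erythroid cells in that 9 of 10 erythroid markers had medians of 6.5 or more, among them Klf1 (12.3) and the transferrin receptor gene Tfrc (13.2), while the probe set of the globin gene Hba-a1 lay at 3.4. The hepatocyte markers were high too: the mean of 12 genes lay at 7.08 to 9.20 without Epo, 8.02 to 10.58 with Epo at 0 to 7 h and 4.77 to 6.40 at 14 to 24 h. Macrophage markers, a cell type known for Mitf, had means of 3.55 to 4.02 at 0 to 7 h and 14 to 24 h. Mast cell markers had means of 3.21 to 3.71 on the same arrays. Granulocyte markers reached higher without Epo, with means of 4.76 to 6.19 against 4.69 to 5.22 with Epo at 0 to 7 h. Their median difference (Epo minus no Epo) was -0.70 at 0 h and -0.12 at 1 to 7 h, and their part in other signals was not tested. At 0 h, before the stimulation, the groups already lay apart by at least 1 in 551 of 18193 genes (3.03%), 436 of them higher with Epo.

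The first comparison asked how the groups differed while both were sampled, averaging over 7 pairs of arrays of the same hour, 1 to 7 h (Epo minus no Epo, ± SE). Folliculin, its partner Fnip2 and the factors Tfe3 and Mitf were lower with Epo, and no gene of the 9 was higher. The 4 called lower compare with 20.2% of all genes called lower and 18.2% called higher (limma, adjusted p under 0.05). The genes were chosen with earlier results of these data known, so their counts are not independent evidence of a direction. The median of the 9 genes was -0.62 and that of all genes 0.025. The split over all genes, 3312 higher and 3669 lower, moved to 2389 and 4476 when each array was centred on its median. In bulk samples fewer cells of a type and less RNA per cell cannot be told apart.

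**Figure D1:**
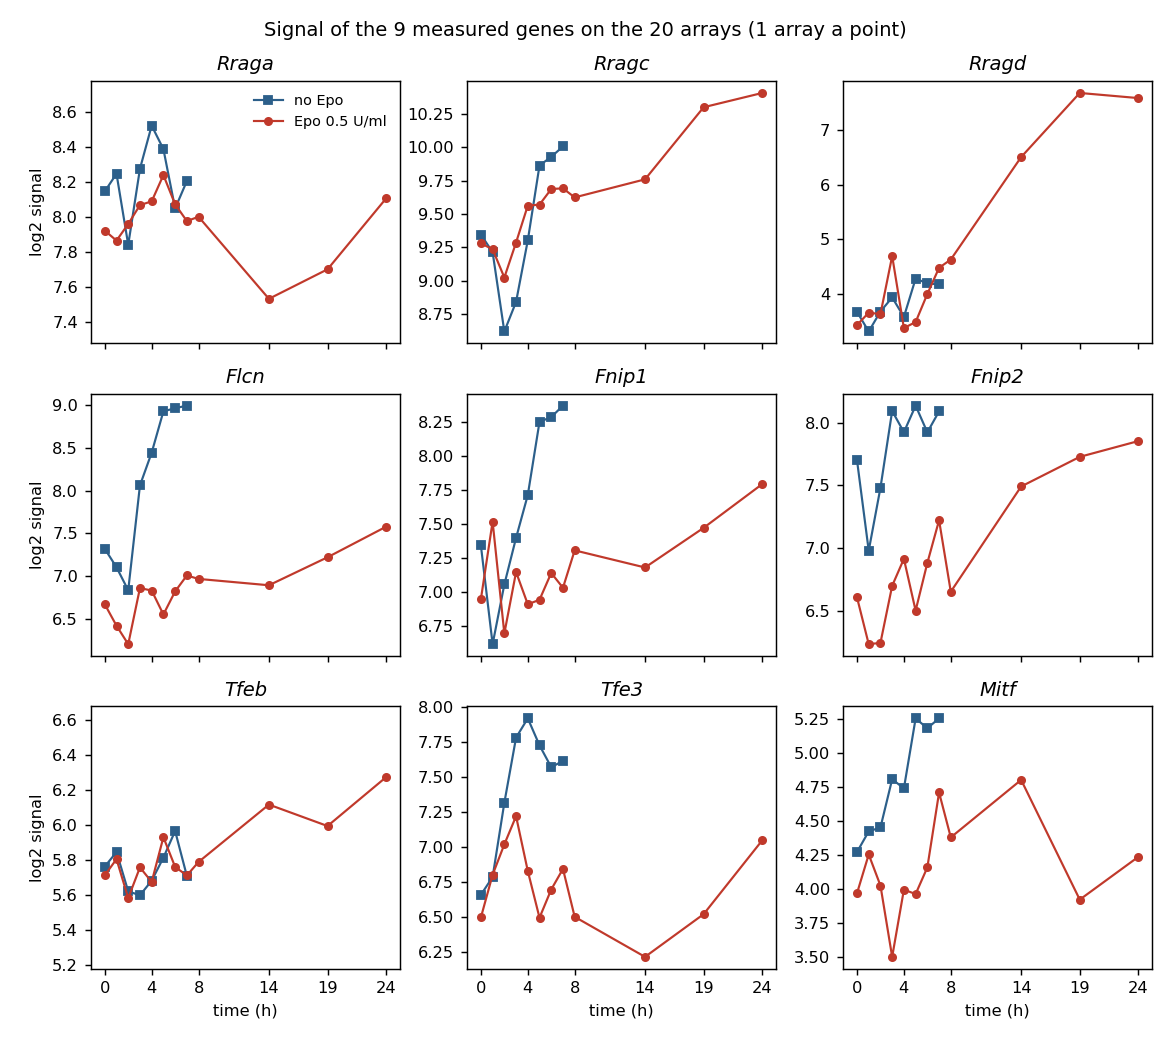
Signal of the 9 measured genes (log2, a separate scale for each gene) against time in hours, 1 array a point, blue squares without Epo and red circles with Epo 0.5 U/ml. Flcn without Epo goes from 7.32 at 0 h to 8.99 at 7 h while the arrays with Epo stay between 6.20 and 7.58, and Rragd reaches 7.68 at 19 h with Epo.

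Flcn encodes folliculin, the GTPase-activating protein for RagC and RagD. Without Epo it lay at 7.32, 7.10 and 6.83 at 0, 1 and 2 h, at 8.06 and 8.44 at 3 and 4 h, and at 8.93, 8.96 and 8.99 at 5, 6 and 7 h. With Epo the same hours gave 6.67, 6.42, 6.20, 6.86, 6.83, 6.55, 6.82 and 7.01. The group with Epo was the lower at every hour, although the ranges of 1 to 7 h overlapped, since the arrays without Epo of 1 and 2 h lay within or near the other range. The mean difference was -1.52 ± 0.21 (adjusted p = 1.6e-04, 2.87-fold, lower in 7 of 7 pairs). A second probe set gave -1.23 ± 0.19 (limma over 34945 probe sets, adjusted p = 3.5e-04), and the third, at a mean signal of 2.21, gave -0.45 ± 0.17 (adjusted p = 0.057).

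Fnip1 and Fnip2 encode the 2 alternative partners of folliculin, which hold it on the lysosome and are needed for its activity. Fnip2 lay at 6.24 to 7.22 with Epo at 1 to 7 h (median 6.70) and at 6.98 to 8.14 without (median 7.92). The difference was -1.13 ± 0.12 (adjusted p = 2.4e-05, 2.19-fold, lower in 7 of 7 pairs), but it was already -1.09 at 0 h (6.61 against 7.70). Fnip1 lay at 6.69 to 7.51 with Epo (median 7.03) and at 6.61 to 8.37 without (median 7.71). Its difference of -0.62 ± 0.23 was not called (adjusted p = 0.057), with 6 of 7 pairs lower. At 1 h Fnip1 was higher with Epo by 0.90. Without the arrays of 1 h it was -0.87 (adjusted p = 8.3e-04), and the call was also made after median centring (-0.69, adjusted p = 0.036), with 0 h as a further pair (-0.59, adjusted p = 0.047) and with its brightest probe set without a cross-hybridisation suffix (-0.65, adjusted p = 0.048).

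**Figure D2:**
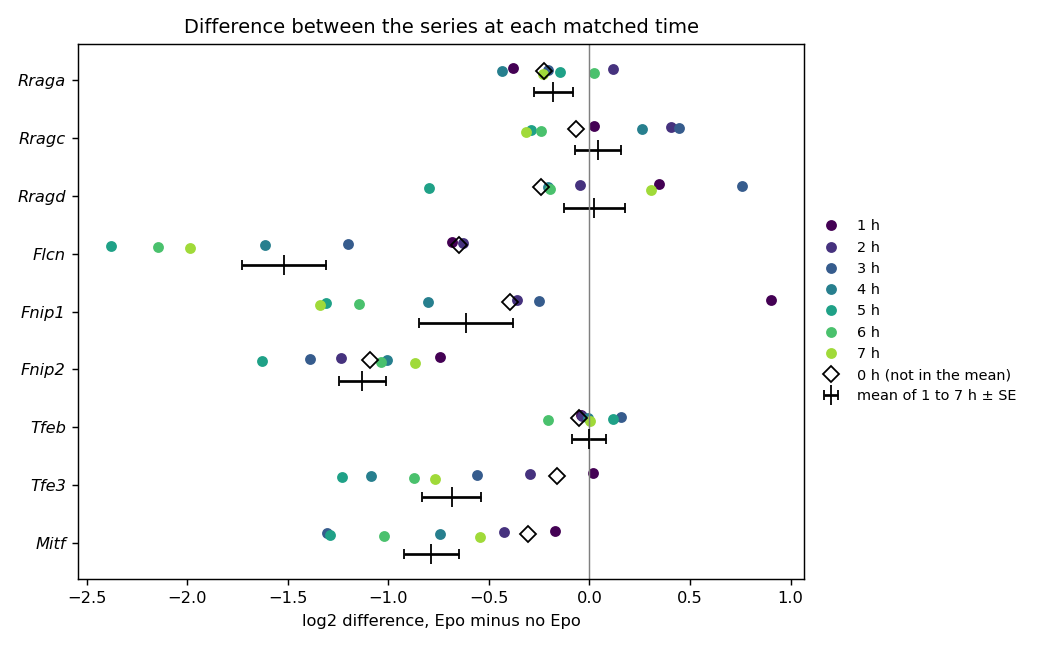
Difference between the groups at each matched time (log2, Epo minus no Epo; circles coloured by hour, 1 pair of arrays each) with the mean of 1 to 7 h ± SE (black bar) and the 0 h difference (open diamond), for the 9 genes. The circles of Flcn move from -0.68 at 1 h to -2.38 at 5 h, whereas those of Fnip2 lie on both sides of its 0 h value of -1.09.

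Among the transcription factors, Tfe3 and Mitf were lower with Epo and Tfeb was not called. Tfe3 lay at 6.49 to 7.22 with Epo (median 6.83) and at 6.78 to 7.92 without (median 7.61), a difference of -0.69 ± 0.15 (adjusted p = 0.0029, 6 of 7 pairs lower). Mitf, best known as the master regulator of pigment cells and as a factor of mast cells and osteoclasts, lay at 3.50 to 4.71 with Epo (median 4.03) and at 4.43 to 5.26 without (median 4.81). Its difference was -0.79 ± 0.14 (adjusted p = 8.4e-04, 7 of 7 pairs lower), at signals close to the median of the array, while a second and dimmer probe set gave -0.0069 ± 0.065 (adjusted p = 0.95). Tfeb lay at 5.58 to 5.93 with Epo and at 5.60 to 5.97 without, a difference of -0.0018 ± 0.083 (adjusted p = 0.99). The ranges of both groups overlapped for each of the 3 factors.

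None of the 3 measured Rag genes was called between the groups. Rraga, which encodes the subunit that binds mTORC1 in its GTP form, differed by -0.18 ± 0.096 (adjusted p = 0.16, 5 of 7 pairs lower). Rragc differed by 0.041 ± 0.11 (adjusted p = 0.81) on average, but its matched differences were 0.022 to 0.44 at 1 to 4 h and -0.24 to -0.31 at 5 to 7 h. Rragd differed by 0.024 ± 0.15 (adjusted p = 0.92).

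The groups already differed in several of these genes before stimulation. At 0 h the group with Epo was lower by 0.65 in Flcn, 0.39 in Fnip1, 0.30 in Mitf and 0.16 in Tfe3. Rragc and Rragd were lower with Epo at 0 h too, by 0.066 and 0.24, while their mean differences at 1 to 7 h were slightly above 0. Counted from each group's own 0 h array, the difference was -0.87 for Flcn, -0.52 for Tfe3, -0.48 for Mitf, -0.22 for Fnip1 and -0.039 for Fnip2. None of these was called (for Flcn limma adjusted p = 0.70, or 0.13 with a linear drift allowed). Of all 18193 genes 12 were called in this way, or 678 with drift allowed. All of these differences rest on the same single pair of 0 h arrays, so a missing call says little about a gene. Hepatocyte markers were higher with Epo in 11 of 12 genes (median 1.13, and 1.51 at 0 h). Erythroid markers were lower with Epo in 6 of 10 genes and higher in none (median -0.38, and -0.33 at 0 h), the direction of Flcn, Fnip2, Tfe3 and Mitf. The part of either marker list in the lower signals was not tested.

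The second comparison asked whether the difference changed over the hours, as the slope of the matched differences over 1 to 7 h. In Flcn and Fnip1 the difference widened downwards, 2 of 9 genes against 7.97% of all genes called lower and 7.25% called higher. The slope was -0.29 ± 0.053 per h for Flcn (adjusted p = 0.0018) and -0.33 ± 0.055 per h for Fnip1 (adjusted p = 9.6e-04). The matched difference of Flcn was -0.68 at 1 h, -0.63 at 2 h, -1.20 at 3 h, -1.61 at 4 h, -2.38 at 5 h, -2.14 at 6 h and -1.99 at 7 h. That of Fnip1 was 0.90, -0.36, -0.25, -0.80, -1.31, -1.15 and -1.34 at the same hours. All 3 probe sets of Flcn and all 3 of Fnip1 were called in this comparison, with slopes of -0.22 to -0.33 per h.

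For the other partner, Fnip2, the slope was -0.0078 ± 0.053 per h (adjusted p = 0.96), so the difference present at 0 h did not show a trend that this design could detect. Tfe3 was at -0.15 ± 0.052 per h (adjusted p = 0.07), called without the arrays of 7 h (-0.22, adjusted p = 0.025), among brighter genes only (adjusted p = 0.049) and with 0 h as a further pair (-0.14, adjusted p = 0.024). Rragc was at -0.11 ± 0.041 per h (adjusted p = 0.091), called without the arrays of 1 h (-0.18, adjusted p = 0.0078). Mitf was at -0.082, Rragd at -0.070, Tfeb at -0.0088 and Rraga at 0.012 per h, none of them called.

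Taken by itself, the group without Epo rose in 6 of 9 genes over 0 to 7 h, and in none did it fall, against 13.3% and 15.4% of all genes called higher and lower. The slope of Flcn was 0.33 ± 0.049 per h (adjusted p = 3.6e-04) and that of Fnip1 0.23 ± 0.040 per h (adjusted p = 0.0010). Mitf rose by 0.15 ± 0.023 per h (adjusted p = 4.0e-04), from 4.27 at 0 h to 5.26 at 7 h, whereas its dimmer probe set had a slope of -0.023 ± 0.023 per h (adjusted p = 0.55 over all probe sets). Tfe3 rose by 0.14 ± 0.042 per h (adjusted p = 0.024): it reached 7.92 at 4 h from 6.66 at 0 h and lay at 7.61 at 7 h. The rise of Tfe3 lay in the first hours, and its call was lost without the array of 0 h (0.10, adjusted p = 0.15), 1 h (0.12, adjusted p = 0.082) or 5 h (0.14, adjusted p = 0.051).

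Rragc, whose product is the partner on which folliculin acts, rose by 0.15 ± 0.046 per h (adjusted p = 0.032). It went from 9.35 at 0 h down to 8.62 at 2 h and then up to 10.01 at 7 h, and the call was lost without the array of 5 h (0.14, adjusted p = 0.070), 6 h (0.13, adjusted p = 0.10) or 7 h (0.13, adjusted p = 0.14). Rragd rose by 0.11 ± 0.031 per h (adjusted p = 0.017) within 3.31 to 4.28, a call lost without 1 h (0.090, adjusted p = 0.063) or 6 h (0.11, adjusted p = 0.053). The other probe sets of Rragd, both dimmer, were not called. They had slopes of 0.036 (limma over all probe sets, adjusted p = 0.14) and 0.0020 per h (adjusted p = 0.96). Fnip2 was at 0.11 ± 0.040 per h (adjusted p = 0.059) and was called without 0 h (0.15, adjusted p = 0.026), without 3 h (0.11, adjusted p = 0.038) or among brighter genes (adjusted p = 0.046). Rraga and Tfeb had slopes of 0.016 and 0.011 per h, neither called.

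**Figure D3:**
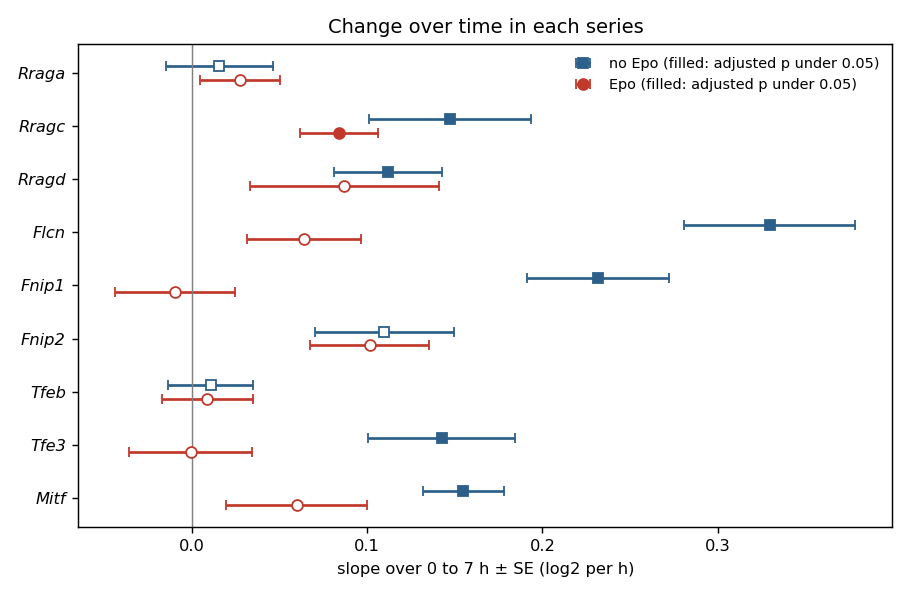
Slope over 0 to 7 h ± SE (log2 per h) of each gene, blue squares without Epo and red circles with Epo, 8 arrays each, filled where the adjusted p is under 0.05. Without Epo 6 of 9 genes are called, led by Flcn at 0.33 per h, and with Epo only Rragc is, at 0.084 per h.

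With Epo over the same 0 to 7 h, Rragc alone rose (0.084 ± 0.022 per h, adjusted p = 0.030), and none of the 9 fell. Over all genes 2.21% were called higher and 5.88% lower. The call of Rragc was lost without the array of 1 h (adjusted p = 0.071), 5 h (adjusted p = 0.055), 6 h (adjusted p = 0.12) or 7 h (adjusted p = 0.081), with median centring (adjusted p = 0.054) and with no intensity trend in the variances (adjusted p = 0.060). Flcn had a slope of 0.064 ± 0.033 per h (adjusted p = 0.31), Fnip1 -0.0095 ± 0.034 (adjusted p = 0.94) and Fnip2 0.10 ± 0.034 (adjusted p = 0.095). Fnip2 was called without the 0 h array (0.14, adjusted p = 0.032) and after quantile normalization (0.11, adjusted p = 0.040). Both groups share only the scale of the arrays here, and the test of their difference over 1 to 7 h is the one given for the matched differences.

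The third comparison set the late arrays with Epo (14, 19 and 24 h) against the early ones (1 to 8 h). No array without Epo reaches these times, so Epo and time in culture cannot be told apart. Of the 9 genes 5 were higher late (Rragd, Fnip2, Rragc, Flcn and Tfeb) and none lower, against 17.6% of all genes called higher and 18.5% lower. The split over all genes, 3207 higher and 3372 lower, moved to 2202 and 3738 with median centring. The lowest late array lay above the highest early one by 1.81 in Rragd, 0.27 in Fnip2, 0.067 in Rragc and 0.064 in Tfeb. How many of all genes had such a gap was not counted, so it is not read as a trait of these genes.

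Rragd, which encodes the Rag subunit known as the most induced by TFEB and its relatives, showed the largest late change of the 9. It lay at 3.65, 3.63, 4.69, 3.37, 3.48, 4.00, 4.48 and 4.63 at 1 to 8 h, hour by hour, and at 6.50, 7.68 and 7.59 at 14, 19 and 24 h. All late arrays thus stood at least 1.81 above the highest early one. The change was 3.27 ± 0.31 (9.63-fold, adjusted p = 1.6e-05). Its other 2 probe sets, with mean signals of 2.35 and 2.93, changed by 0.29 ± 0.12 (limma over 34945 probe sets, adjusted p = 0.080) and 0.19 ± 0.12 (adjusted p = 0.23), so that the result rests on 1 of 3 probe sets.

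**Figure D4:**
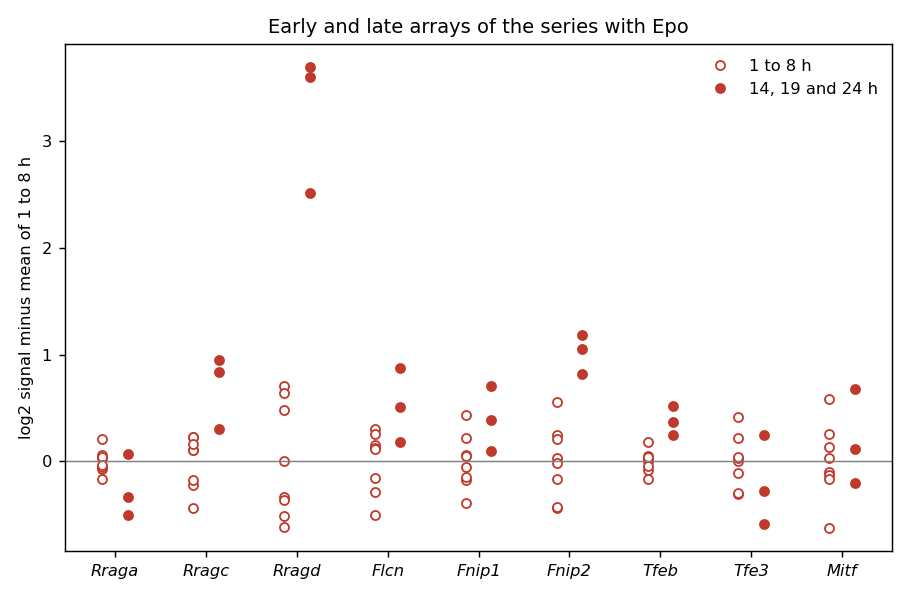
Signal with Epo minus the gene's mean of 1 to 8 h (log2), open circles for the 8 early arrays and filled circles for the 3 late arrays of each gene. The late arrays of Rragd lie 2.51 to 3.69 above the early mean. Those of Fnip2, Rragc and Tfeb also lie above every early array, by at least 0.27, 0.067 and 0.064.

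Fnip2 was higher late by 1.02 ± 0.19 (adjusted p = 9.9e-04, 2.03-fold). Its late signals of 7.49, 7.73 and 7.85 lay above the early range of 6.24 to 7.22 and within the range of the arrays without Epo (6.98 to 8.14 at 0 to 7 h). Rragc was higher by 0.69 ± 0.17 (adjusted p = 0.0049), at 9.76, 10.30 and 10.41 against 9.02 to 9.69. Against the arrays of 6 to 8 h only, its change was 0.49 (adjusted p = 0.10). Rraga, the partner of either, was at -0.25 ± 0.14 (adjusted p = 0.16). Without the array of 24 h its change was -0.42 (adjusted p = 0.025), since it lay at 7.53 and 7.70 at 14 and 19 h and at 8.11 at 24 h.

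Flcn and Tfeb were called late by a small margin. Flcn was higher by 0.52 ± 0.19 (adjusted p = 0.042), at 6.89, 7.22 and 7.58 against 6.20 to 7.01. The call was lost without any 1 of the arrays of 1, 2, 4, 5, 6, 19 and 24 h (adjusted p = 0.052 to 0.23), and without 24 h the change was 0.35. Its second probe set gave 0.36 (adjusted p = 0.089 over all probe sets). Tfeb was higher by 0.38 ± 0.12 (adjusted p = 0.022), at 6.12, 5.99 and 6.27 against 5.58 to 5.93, and without 24 h by 0.30 (adjusted p = 0.097). Against the arrays of 6 to 8 h neither was called (Flcn 0.30, adjusted p = 0.34; Tfeb 0.37, adjusted p = 0.15), nor with median centring (Flcn 0.45, adjusted p = 0.082; Tfeb 0.30, adjusted p = 0.057).

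Fnip1, Mitf and Tfe3 were not called late. Fnip1 was at 0.40 ± 0.17 (adjusted p = 0.09), and it was called without the array of 1 h (0.46, adjusted p = 0.045) or 14 h (0.55, adjusted p = 0.035) and after quantile normalization (0.62, adjusted p = 0.016). Mitf was at 0.20 ± 0.22 (adjusted p = 0.49), with a dimmer probe set at 0.63 ± 0.14 (adjusted p = 0.0026 over all probe sets), and the mean of both was called (0.41, adjusted p = 0.014). Tfe3 was at -0.21 ± 0.19 (adjusted p = 0.41). Late, 11 of 12 hepatocyte markers were lower and 7 of 10 erythroid markers higher, and the array of 24 h had the narrowest spread of signals of all 20 (SD 2.31). Their part in the late changes was not tested.

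The genes around the switch were read from 9 lists of 111 genes, of which 100 were measured. With Epo at 1 to 7 h 18 were higher and 41 lower, against 18.2% and 20.2% of all genes, so that the count of higher genes was at the share of all genes. The difference moved down over the hours in 30 and up in 7 (17 and 4 without the arrays of 6 h), against 7.97% and 7.25% of all genes. Without Epo 37 rose and 16 fell (lower without the array of 6 h: 10), against 13.3% and 15.4%. With Epo over the same time 6 rose and 10 fell, against 2.21% and 5.88%. Late, 28 were higher and 20 lower, against 17.6% and 18.5%, or 14 and 12 against the arrays of 6 to 8 h. Counted from each group's own 0 h, none of the 100 was called (12 of all genes). With a linear drift allowed 7 were called, all lower (678 of all genes in either direction). The 0 h difference is therefore given beside each Epo difference.

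**Figure D5:**
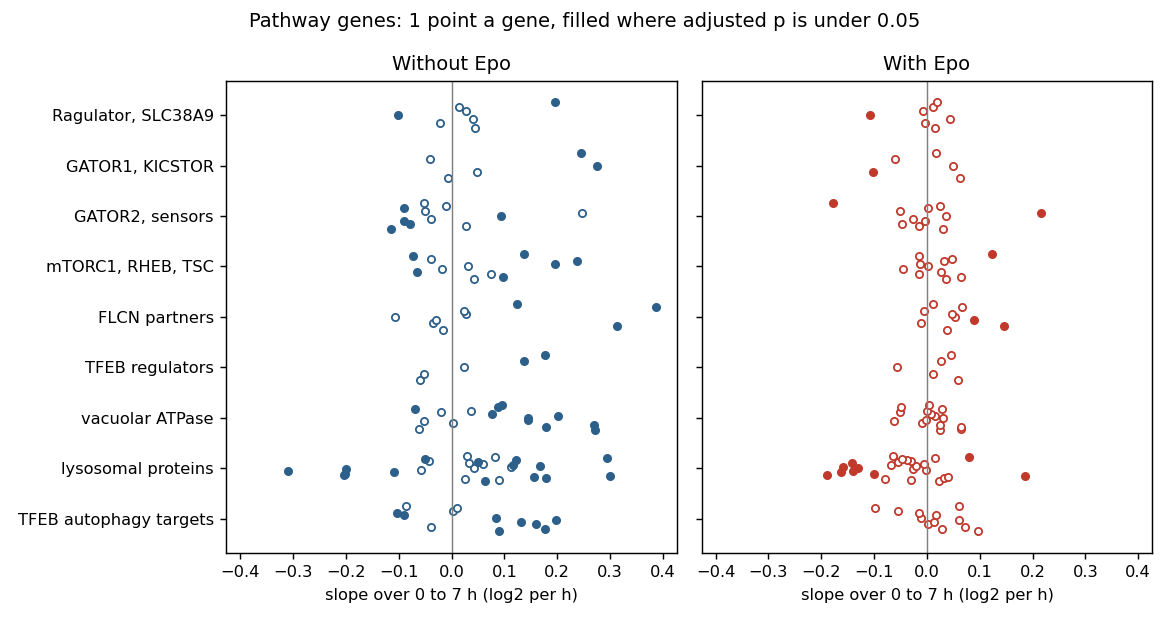
Slope over 0 to 7 h (log2 per h) of the 100 measured pathway genes by list, without Epo (left, blue) and with Epo (right, red), 1 point a gene, filled where the adjusted p is under 0.05. The vacuolar ATPase has 9 filled points above 0 and 1 below without Epo and none with Epo.

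The vacuolar ATPase, the proton pump that acidifies the lysosome and takes part in signalling to the Rag GTPases, had 15 measured subunits. Without Epo 9 of them rose and 1 fell (median 0.088 per h against -0.0040 for all genes, of which 13.3% rose and 15.4% fell). With Epo none was called over 0 to 7 h, where few of all genes were (2.21% and 5.88%). The change of the Epo difference was downwards in 9 and upwards in 1 (7.97% and 7.25% of all genes). At 1 to 7 h 6 were higher and 4 lower with Epo (18.2% and 20.2% of all genes), and the largest difference, that of Atp6v0b (1.22 ± 0.11), was as wide at 0 h (1.30). Atp6v0a1 was lower by 0.85 ± 0.20 and Atp6v1d by 0.80 ± 0.15, against 0.13 and 0.17 at 0 h, although the mean of the probe sets of Atp6v0a1 gave only -0.49. Late, 8 subunits were higher and 1 lower (17.6% and 18.5% of all genes; median 0.43 against 0.076), led by Atp6v0d1 (1.53 ± 0.18, adjusted p = 3.5e-05), Atp6v0b (1.04 ± 0.16) and the accessory subunit Atp6ap2 (0.76 ± 0.17).

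Lysosomal proteins that are counted among the CLEAR genes had 25 measured members. With Epo 2 were higher and 11 lower at 1 to 7 h, against 18.2% and 20.2% of all genes (median -0.33 against 0.025). Psap, the precursor of the sphingolipid activator proteins, was lower by 1.26 ± 0.14 (0.41 at 0 h). The chloride transporter gene Clcn7 was lower by 0.95 ± 0.20 (0.031 at 0 h), though the mean of its probe sets gave -0.21 (adjusted p = 0.24). The cholesterol exporter gene Npc1 was lower by 0.73 ± 0.10, while at 0 h it was higher by 0.29. Npc1 was not among the brighter genes (mean signal above that of the median gene), and whether it lay above background is not known here. Without Epo 9 rose and 6 fell, against 13.3% and 15.4% of all genes, and with Epo 2 rose and 7 fell, against 2.21% and 5.88%. Late, 9 were higher and 5 lower, against 17.6% and 18.5%: the protease gene Ctsf was higher by 3.30 ± 0.34 (adjusted p = 1.9e-05), whereas the proteases Ctsz and Ctsl were lower by 1.69 ± 0.23 and 1.44 ± 0.28. The mean of the probe sets gave 1.78 for Ctsf and -0.66 for Ctsl, both called.

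Of 12 genes listed as TFEB targets, most of them autophagy genes, 2 were higher and 6 lower with Epo (18.2% and 20.2% of all genes). The list also held the transcription regulator genes Hif1a and Ppargc1a. Hif1a was among the higher here and among the lower late. Without Epo 6 rose and 2 fell (13.3% and 15.4%), and none was called over the same hours with Epo (2.21% and 5.88%). The counts of higher and of falling genes were thus near those shares. Uvrag, a component of the autophagy lipid kinase complex, was lower by 0.89 ± 0.15 (0.55 at 0 h) and Vps11, a subunit of the tether that fuses vesicles with lysosomes, by 0.75 ± 0.15 (0.39 at 0 h; -0.32 with the mean of its probe sets). Gabarapl1, of the ATG8 family, was higher by 0.81 ± 0.12, from 0.0031 at 0 h. Late, 4 were higher and 3 lower (17.6% and 18.5% of all genes), with Map1lc3b, which encodes the autophagosome protein LC3B, at 1.31 ± 0.13 (adjusted p = 1.6e-05) and the receptor gene Sqstm1 at 0.75 ± 0.20 (adjusted p = 0.010; 0.48 and adjusted p = 0.092 without 24 h; 0.44 with the mean of its probe sets). Nrbf2, which encodes a further component of the autophagy lipid kinase complex, was lower late by 0.90 ± 0.18 (adjusted p = 0.0015; -0.72 and adjusted p = 0.060 against 6 to 8 h).

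The regulators of the Rag GTPases did not share 1 direction. The counts with Epo that follow stand against 18.2% of all genes called higher and 20.2% lower, and in lists this short many lie near those shares. Ragulator, with Slc38a9 and Borcs6, had 3 of 7 genes higher with Epo and 3 lower. Lamtor5 was higher by 0.92 ± 0.071 (0.59 with the mean of its probe sets) and Lamtor3 by 0.74 ± 0.083, of which 0.91 and 0.59 were present at 0 h, and Borcs6 was lower by 0.90 ± 0.14 (0.063 at 0 h). Late, 1 of the 7 was called, Lamtor2, lower by 0.47 ± 0.17 (adjusted p = 0.043), and without 24 h its change was -0.15 (adjusted p = 0.33). The call of Lamtor2 was also lost without any 1 of the arrays of 1 to 8 h (adjusted p = 0.052 to 0.066). In GATOR1 and KICSTOR, which restrain RagA and RagB, 3 of 5 were lower and none higher: Nprl3 by 0.95 ± 0.15, Itfg2 by 0.77 ± 0.18 (0.018 at 0 h) and Depdc5 by 0.37 ± 0.11 (0.41 at 0 h). The call of Depdc5 was lost without the arrays of 2 h (-0.26), 3 h or 5 h (adjusted p = 0.051 to 0.057), and the mean of its probe sets gave -0.043. Nprl3 was higher with Epo by 0.36 at 0 h, and late it was higher than early by 0.84 ± 0.16 (adjusted p = 0.0012).

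Of 11 genes of GATOR2 and of amino acid sensors 2 were higher with Epo and 4 lower, against 18.2% and 20.2% of all genes. Among the lower were the leucine sensor and stress gene Sesn2 (-0.98 ± 0.24, -0.073 at 0 h) and Sesn1 (-0.67 ± 0.11, -0.062 at 0 h, and -0.44 with the mean of its probe sets). Sec13 was higher by 0.57 ± 0.069, by 0.56 already at 0 h. Late, 2 were higher and 3 lower, against 17.6% and 18.5% of all genes. Sesn2 was higher by 1.83 ± 0.27 (adjusted p = 1.5e-04) and Sesn1 by 0.64 ± 0.20 (adjusted p = 0.023; 0.24 and adjusted p = 0.37 against 6 to 8 h), and the GATOR2 subunit gene Mios was lower by 0.64 ± 0.12 (adjusted p = 0.0010). The change of Sesn1 was 0.57 without 24 h (adjusted p = 0.092) and 0.60 without 19 h (adjusted p = 0.080). Of 11 genes of mTORC1, RHEB and TSC 1 was higher with Epo, the kinase gene Mtor itself (0.58 ± 0.094, 0.48 at 0 h; 0.28 with the mean of its probe sets). Lower were 3, among them Tsc1, an inhibitor of the pathway (-0.87 ± 0.18, -0.36 at 0 h; -0.44 with the mean of its probe sets). Rhebl1, a relative of the mTORC1 activator RHEB, was lower by 0.59 ± 0.16 although it was higher with Epo by 0.73 at 0 h, and with 0 h as a further pair it was not called (-0.42, adjusted p = 0.10). Late, Eif4ebp1, whose product is a substrate of mTORC1 that holds back translation, was higher by 0.57 ± 0.16 (adjusted p = 0.013) and the mTORC1 subunit gene Mlst8 lower by 0.47 ± 0.17 (adjusted p = 0.037). Without 24 h neither was called (0.49, adjusted p = 0.068; -0.22, adjusted p = 0.28). Eif4ebp1 also lost its call without 19 h (0.51, adjusted p = 0.060), and Mlst8 without 1, 3, 4 or 8 h (adjusted p = 0.054 to 0.060).

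Of 9 genes listed around folliculin 2 were higher with Epo and 5 lower, against 18.2% and 20.2% of all genes. The list was wider than partners and relatives of folliculin, since it held Gpnmb (among the higher) and Lars (among the lower). Prkab1, a subunit of the energy sensor AMPK to which folliculin complexes bind, was lower by 1.59 ± 0.20 (0.16 at 0 h). C9orf72 and Smcr8 encode the 2 core proteins of a complex built like that of folliculin and its partners, yet they lay on opposite sides: Smcr8 was lower by 1.16 ± 0.15 (0.58 at 0 h; -0.49 with the mean of its probe sets) and C9orf72 higher by 0.97 ± 0.13 (0.70 at 0 h). Late, none of the 9 was higher and 4 were lower, against 17.6% and 18.5% of all genes. Prkaa1, which encodes a catalytic subunit of AMPK, was lower by 1.05 ± 0.18 (adjusted p = 4.0e-04), Wdr41, the third protein of the C9orf72 complex, by 0.83 ± 0.18 (adjusted p = 0.0023) and C9orf72 by 0.81 ± 0.16 (adjusted p = 0.0011). Of 5 regulators of TFEB measured, none was higher with Epo and 2 lower: Gsk3b, a kinase of TFEB, by 1.39 ± 0.14 (1.11 at 0 h; -0.56 with the mean of its probe sets), and Ppp3r1, a subunit of its phosphatase calcineurin, by 0.61 ± 0.11 (0.34 at 0 h; -0.13 and adjusted p = 0.42 with the mean of its probe sets). Late, 3 of the 5 were higher and 2 lower. The calcineurin genes Ppp3r1 and Ppp3ca were lower by 1.05 ± 0.17 (adjusted p = 2.8e-04) and 0.85 ± 0.19 (adjusted p = 0.0030). The lysosomal calcium channel gene Mcoln1 was higher by 0.89 ± 0.17 (adjusted p = 8.8e-04; 0.66 and adjusted p = 0.059 against 6 to 8 h).

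Across the 20 arrays the 3 most variable of the 9 genes were Rragd, Flcn and Fnip2. The 5 genes most like Rragd were Smox, Nrip3, Ackr1, Ypel4 and Igtp (Pearson r = 0.97 to 0.95). Of the other 8, Tfeb (0.76, rank 758 over all genes) and Rragc (0.70, rank 1443) were the nearest. Those most like Flcn were Phf3, Dpf2, Supt7l, Atad2 and Akirin2 (r = 0.97 to 0.96). The nearest of the 8 were Fnip1 (0.87, rank 446), Fnip2 (0.85, rank 582) and Mitf (0.80, rank 917), so many other genes were nearer. Those most like Fnip2 were Itga4, Osbpl8, Epg5, Kat6b and Ep300 (r = 0.95 to 0.93). The correlation of Flcn with Rragd was 0.061. All arrays share 2 time courses, so these values describe likeness of course and carry no test.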

How the data were processed

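RNA of 20 samples was measured on mouse arrays, 1 array a sample. The deposited table holds log2 signals (1.37 to 14.56, read as log2 from that range). The sources used here do not say how the authors summarised and scaled the probes, and detection calls were not used. The number of arrays limits the precision.

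Of 45101 probe sets 34945 named 1 gene (platform annotation), 932 several and 9211 none (13 more are controls); 34754 were found in a reference gene table (GRCm38.p6), where 0 symbols changed. Probe sets not found there kept their platform symbol. The 34945 probe sets covered 18193 genes. These were fitted with limma 3.58.1 in R 4.3.3 (eBayes with trend), with Benjamini-Hochberg adjustment over all genes and a threshold of 0.05. Between groups, 14 arrays of 1 to 7 h were fitted with time as a block, slopes were fitted on time in hours, and 11 arrays entered the late comparison. The fits were also run on simulated data with independent noise around flat gene means. This does not imitate the single time courses here and says nothing of their errors. Tables and plots used pandas 2.3.3 and matplotlib 3.10.9 in Python 3.11.15. Promoter sequences are from RefSeq.

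The genes and lists were chosen with earlier results of these data known. All 10 listed genes were named, and from each pathway list up to 3 called genes with the largest Epo difference and up to 3 with the largest late change. For the 3 most variable genes the 5 best correlated were named. Outside this rule, Hif1a, Ppargc1a, Gpnmb and Lars were named to say what their lists held. Alternatives were other scalings, probe set choices, variance models, uses of the 0 h arrays, time spans, time not paired, and each time left out.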

Additional observations from a re-analysis of the deposited data

Results flagged for a closer look

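Flcn and Fnip1 differed between the groups in their course over time. The slope with Epo minus that without was -0.29 log2 per h for Flcn and -0.33 for Fnip1 (limma, matched differences of 1 to 7 h), with no further gene of the 9 past the threshold. In Fnip1 the slope includes the arrays of 1 h, the only hour at which the group with Epo was the higher. A search of the 8 arrays without Epo for a single array far from the rest found none for these 9 genes.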

How the results depend on the processing

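Of 755 alternative values of single genes, 664 kept direction and side of the threshold, 37 lost a call, 20 gained one and 34 changed sign, all of the last at values not called. Of 883 values of named pathway genes 81 lost a call and 4 changed sign. From the own 0 h the Epo difference was called in 0 of 9 genes (12 of all genes), and with drift allowed in 0 (678 of all genes). Leaving out 1 time gave 4 to 5 genes for the Epo difference, 1736 to 2693 of all genes for its change (2 to 3 of the 9), 4 to 7 genes for time without Epo, 0 to 2 (915 to 1444 of all genes) for time with Epo, and 4 to 6 (4232 to 7255 of all genes) for the late comparison. For time with Epo, median centring and no intensity trend left 0 genes, and quantile normalization or 0 h left out gave 2. The late comparison gave 2 genes against 6 to 8 h (2896 of all genes) and 3 with median centring. Leaving out the time block (no replicate block) kept 4 genes called.

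Sign changes in the Epo difference, as ranges when 1 time is left out, were -0.099 to 0.16 for Rragd, -0.029 to 0.032 for Tfeb and -0.027 to 0.10 for Rragc. Median centring gave -0.032 for Rragc and -0.049 for Rragd, quantile normalization -0.038 for Rragd and 0.073 for Tfeb, and 0 h as a further pair -0.0096 for Rragd. From the own 0 h, with or without drift, Rraga was at 0.045, Tfeb at 0.048, Depdc5 at 0.041 and Atp6v0b at -0.075. The change of the difference ranged from -0.022 to 0.044 for Rraga, -0.065 to 0.065 for Fnip2 and -0.022 to 0.0097 for Tfeb. Without Epo Tfeb ranged from -0.0049 to 0.022 per h. With Epo Fnip1 ranged from -0.028 to 0.028, Tfe3 from -0.044 to 0.013 and Mitf from -0.0015 to 0.087 per h, quantile normalization gave 0.0031 for Tfe3 and the span of 0 to 8 h 0.011 for Fnip1. Late, Mitf ranged from -0.044 to 0.40 and was at -0.096 against 6 to 8 h, and Tfe3 was at 0.029 after quantile normalization. Except where a setting uses fewer arrays or genes, the cause was not tested. Low signals, as for Rragd and Mitf, limit what a fold change can show.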
